A study of Mus musculus with 6 samples.

Results

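The 10 genes described here encode the pyruvate dehydrogenase complex of the mitochondrial matrix and the enzymes that switch it: the kinases Pdk1, Pdk2, Pdk3 and Pdk4, the phosphatases Pdp1 and Pdp2, the E1 subunits Pdha1 and Pdhb, the E2 subunit Dlat and the E3-binding protein Pdhx. They were chosen by gene symbol, and all 10 were found, in 40 of the 105129 transcript rows and as 10 of the 33641 gene symbols of the expression table. RNA of whole quadriceps muscle was sequenced from 6 male mice aged 4 months, littermates from heterozygous crosses, with tissue taken at about ZT4. In 3 of them both copies of the glucocorticoid receptor gene carried a genocopy of human rs6190 (homozygous), and in 3 both copies carried the reference allele (WT). The labels name neither a treatment nor a restriction of the allele to a cell type, and the sources used here do not state the strain. The comparison asked which transcripts differ in muscle with this receptor allele. Abundance is given as TPM, a transcript level corrected for transcript length, so that levels can be compared between genes. It is scaled to the same total, 1000000, in every library. Gene positions are those of GRCm38. The values carry no read depth, so the counting error behind low values is unknown.

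Pyruvate dehydrogenase converts pyruvate to acetyl-CoA and so links glycolysis to the citric acid cycle. The kinases phosphorylate the E1 alpha subunit and switch the complex off, and the phosphatases remove the phosphate and switch it on. In skeletal muscle Pdk4 is known as the kinase isoform whose transcript rises in fasting, under the control of PPAR and FoxO factors, and glucocorticoids are known to raise it, so that fat is burned in place of glucose.

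The lowest p-value among the isoforms of these genes belonged to an isoform of Pdp1 (chromosome 4, 11958184 to 11966452, minus strand, GRCm38), whose isoforms differ at the 5′ end, so the coding start of its most abundant isoform, 206, is shown. In GENCODE M21 its 6 isoforms are all protein coding and share a coding exon. Isoforms 201, 203 and 204 begin in an upstream first exon, isoforms 202 and 206 in a middle one (11965884 to 11965981) and isoform 205 in a downstream one. In isoforms 202, 204, 205 and 206 translation is annotated to start before the shared exon, and in 201 and 203 at an ATG inside it. The run below is written 5′ to 3′ on the gene's strand, with its coding bases upstream of the shared exon in capitals and the first 47 bases of the shared exon in lower case, whose last 3 bases are the start codon of isoforms 201 and 203.
Pdp1-206: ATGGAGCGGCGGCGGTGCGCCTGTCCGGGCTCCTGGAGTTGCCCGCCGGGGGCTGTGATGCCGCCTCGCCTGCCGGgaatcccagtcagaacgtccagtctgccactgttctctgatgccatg
The coding part ahead of the shared exon was 76 bases in isoform 206. Isoform 202 begins at 11965927, downstream of the first base of this run (11965959), so the run does not show its coding start. Few bases tell these isoforms apart: of the 31-base windows of each transcript, 22 occurred in no other Pdp1 isoform for 201, 27 for 202, 27 for 204, 81 for 206, 172 for 205 and 1648 for 203.

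The sequences before the starts of the main muscle kinases, Pdk4 and Pdk2, are shown because one varied widely between mice and the other hardly at all. The runs come from RefSeq (GRCm38.p6, minus strand) and end before the annotated transcripts begin, 219 bases for Pdk4 at chr6:5496310-5496528 and 250 bases for Pdk2 at chr11:95041372-95041621, with ATTGG, the reverse complement of the CCAAT box, in capitals.
Pdk4: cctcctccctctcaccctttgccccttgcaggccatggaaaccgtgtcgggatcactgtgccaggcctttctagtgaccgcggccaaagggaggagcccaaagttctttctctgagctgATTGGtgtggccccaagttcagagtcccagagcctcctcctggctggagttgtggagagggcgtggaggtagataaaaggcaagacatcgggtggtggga
Pdk2: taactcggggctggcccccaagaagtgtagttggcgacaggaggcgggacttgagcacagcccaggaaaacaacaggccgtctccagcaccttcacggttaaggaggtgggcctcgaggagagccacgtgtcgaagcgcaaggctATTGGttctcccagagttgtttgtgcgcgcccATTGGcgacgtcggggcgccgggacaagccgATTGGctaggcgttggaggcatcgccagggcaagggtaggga
Motifs were searched on both strands in the 250 bases before each RefSeq start. CCAAT occurred 1 time in the Pdk4 window and 3 times in the Pdk2 window, in the windows of 5 of the genes described here (Pdhb, Pdk2, Pdk3, Pdk4 and Pdp2), and in 33.8% of 32851 windows of this length. The RefSeq table used here held 9 of the 10 genes, all but Pdp1. None of the 9 held the palindromic glucocorticoid receptor element (0.00913% of all windows), GTAAACA, a forkhead motif (3.17%), AGGTCA, the nuclear receptor half-site (14.02%), or TCAAGGTCA, the site of oestrogen-related receptors (0.387%), which contains AGGTCA. The GC box GGGCGG occurred in the windows of 6 of the 9 (Dlat, Pdhb, Pdhx, Pdk1, Pdk3 and Pdp2), against 32.7% of all windows. These matches describe letters in a short window and say nothing of binding.

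The muscle markers Acta1, Ckm, Mb, Des and Ttn were abundant in every library, summing to 44465 to 48747 TPM in homozygous muscle and 40710 to 63172 TPM in WT muscle. WT replicate 3 stood apart from the other 5 libraries: its 12 fast-fibre genes made up 23.2% of TPM against 9.67% to 13.1%, its 10 slow-fibre genes summed to 245 TPM against 1123 to 9702 TPM, and mitochondrial transcripts made up 14.3% against 20.9% to 33.9%. Slow-fibre transcripts summed to 1901, 9702 and 2239 TPM in homozygous replicates 1, 2 and 3 and 1737, 1123 and 245 TPM in WT replicates 1, 2 and 3. Homozygous replicate 2 thus lay far above all other libraries, and slow-fibre fold changes without it are not given here. All 10 slow-fibre genes had log2 fold changes above that of the median gene, with a median of 2.31. Of 12 fast-fibre genes 10 were below 0, and the median of the list was -0.39. The 2 exceptions were Myh1 (1.77) and Myh2 (1.36), named after their values were seen, both with homozygous libraries all above WT. These differences were smaller without WT replicate 3. The slow-fibre log2 fold changes then ran from 0.54 to 1.71, against 1.37 to 2.91 with all libraries. Those of the 10 fast-fibre genes ran from -0.30 to 0.083, against -0.65 to -0.24, so some turned above 0. Myh1 and Myh2 stayed above 0. Schwann cell markers summed to 28.8 to 104.6 TPM against 16.1 to 25.1 TPM, and 4 of 5 were tested, all with homozygous libraries above WT, as for 34.7% of all genes. Adipocyte markers summed to 6.05 to 25.8 TPM against 6.39 to 17.8 TPM, blood markers to 536 to 781 TPM against 476 to 851 TPM, endothelial markers to 35.1 to 41.1 TPM against 27.5 to 39.2 TPM and immune markers to 4.23 to 6.48 TPM against 2.14 to 4.57 TPM. In bulk muscle, fewer cells of a type and less RNA per cell cannot be told apart. The part of fibre mix or other cells in the results below was not tested. Some values are also given without WT replicate 3 or with a slow-fibre covariate. Slow-fibre sums were higher in every homozygous library than in any WT library, so these values cannot separate fibre mix from genotype.

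Genotypes were compared with limma on log2(TPM + 1), and a log2 fold change or log2 difference is homozygous minus WT on that scale. Of 11099 genes that reached 1 TPM in 3 or more libraries, 0 (0%) had a Benjamini-Hochberg adjusted p under 0.05, and 2697 (24.3%) had an unadjusted p under 0.05, 2636 (23.7%) higher and 61 (0.55%) lower in homozygous muscle. With array weights the adjusted count was 810. The median log2 fold change of all genes was 0.26, and after median centring it was -0.037, with 44.2% of the genes at an unadjusted p under 0.05 being higher in place of 97.7%. Fold changes are therefore also given relative to the median gene. Of the 10 genes here, 8 passed the filter and 0 passed the test, while 2 had an unadjusted p under 0.05 (Pdk1 and Pdhb). Their log2 fold changes ran from -0.30 for Pdk4 to 0.79 for Pdk1 with a median of 0.33, against 0.26 for all genes, and 7 of the 8 were above 0, as were 85.8% of all genes. That count was 6 after median centring and 3 after median centring without WT replicate 3.

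**Figure D1:**
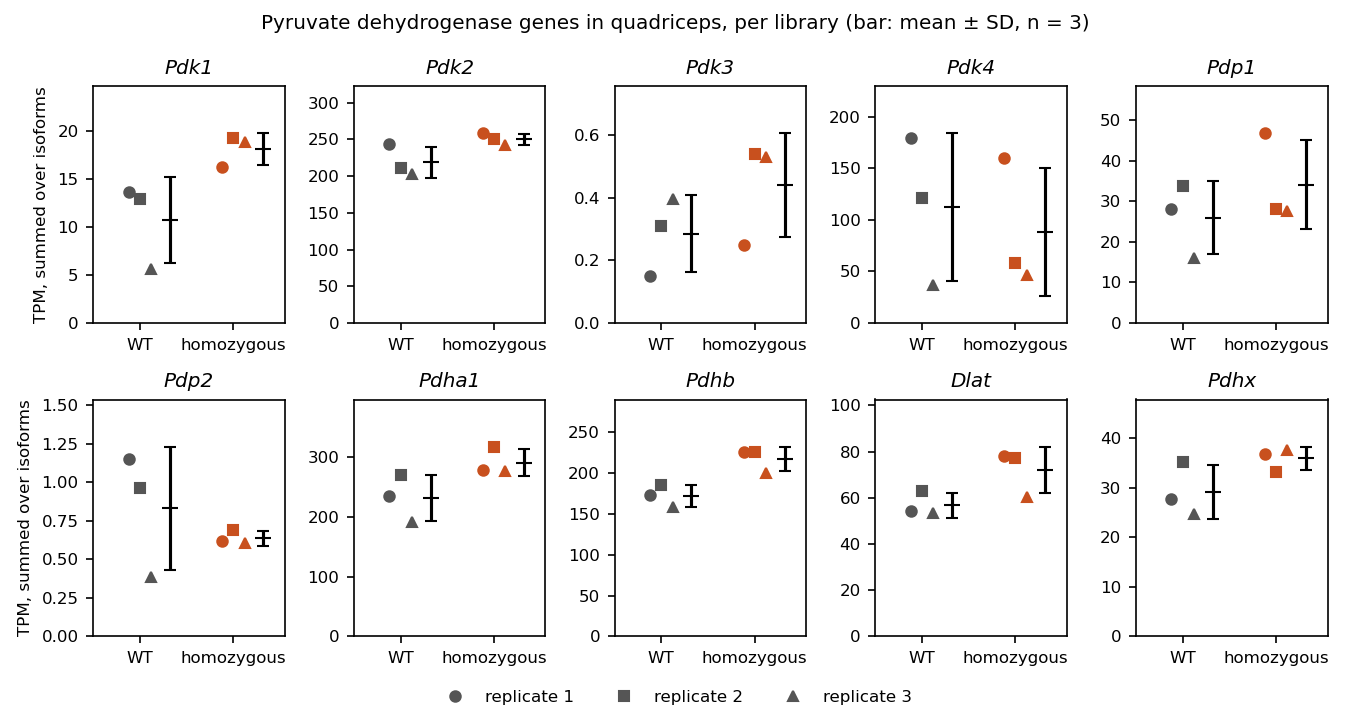
TPM of each of the 10 genes, summed over isoforms, in every library (points, marker by replicate number) with the group mean and SD (n = 3) beside them; each y axis starts at 0. Pdk1, Pdha1 and Pdhb show homozygous points all above the WT points, and Pdk4 spans 37.2 to 179 TPM with both groups spread over most of that range.

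Among the kinases Pdk2 was the most abundant. Pdk2 (chromosome 11, 95026258 to 95041354), the broadly expressed kinase isoform, was 258, 250.1 and 243 TPM in homozygous replicates 1, 2 and 3 and 243, 211 and 203 TPM in WT replicates 1, 2 and 3. The groups met at 243 TPM, and the highest library was only 1.27 times the lowest, a range narrower than that of all but 5.46% of tested genes. Its log2 fold change was 0.20 (SE 0.13; limma, adjusted p 0.342), which is -0.068 relative to the median gene, and its sign turned with the scaling (-0.018 with quantile normalization, -0.10 with median centring).

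Pdk4 (chromosome 6, 5483351 to 5496309), the fasting-responsive kinase, was 160.1, 57.9 and 46.9 TPM in homozygous muscle and 179, 121 and 37.2 TPM in WT muscle. Replicate 1 of each genotype was near the top, while homozygous replicates 2 and 3 and WT replicate 3 lay toward the bottom. The groups overlapped over nearly their whole range. The highest library was 4.82 times the lowest, and 5.81% of tested genes had a wider range. Homozygous muscle averaged 88.3 ± 62.4 TPM and WT muscle 113 ± 71.5 TPM (both SD, n = 3), and the log2 fold change was -0.30 (95% interval -1.97 to 1.38; limma, adjusted p 0.787), or -0.56 relative to the median gene. The interval is wide on both sides of 0, so the size and direction of a genotype difference in Pdk4 were not resolved in these 6 libraries. The sign was set by single mice: the log2 fold change was 0.17 without WT replicate 1, 0.045 without homozygous replicate 3, and -0.95 without WT replicate 3. It was -0.60 with median centring, -0.99 with the slow-fibre covariate and -1.18 with array weights (adjusted p 0.190 in the last).

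Pdk1 (chromosome 2, 71873224 to 71903858), a kinase known as a target of hypoxia signalling, was 16.2, 19.2 and 18.8 TPM in homozygous muscle and 13.6, 12.9 and 5.56 TPM in WT muscle. Every homozygous library lay above every WT library, as was the case for 34.7% of all tested genes, while 0.73% had them all below and 35.5% in all had groups without overlap. Its log2 fold change of 0.79 (SE 0.29) was the largest of the 8, above 96.4% of all genes and 0.53 above the median gene, but did not pass the test (limma, adjusted p 0.180, unadjusted p 0.0275). Much of its size came from WT replicate 3: without that library it was 0.42 (SE 0.12), or 0.22 above the median gene, with groups that still did not overlap, and with the slow-fibre covariate it was 0.197 (adjusted p 0.844). Pdk3 (chromosome X, 93764607 to 93832201) was near absent, at 0.249, 0.541 and 0.532 TPM in homozygous muscle and 0.152, 0.309 and 0.396 TPM in WT muscle, below the filter. Its coding isoform was listed at 0 in WT replicate 3, where the sum came from 2 noncoding fragments.

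Pdk2 made up 55.7% to 82.5% of the summed kinase transcripts and Pdk4 15.1% to 41.1%, while Pdk1 held 2.26% to 6.08%. The Pdk4 share was 36.8%, 17.7% and 15.2% in homozygous muscle and 41.1%, 35.0% and 15.1% in WT muscle. The summed kinases followed Pdk4, at 435, 328 and 309 TPM in homozygous muscle and 436, 345 and 246 TPM in WT muscle. The mice with the most kinase transcript were thus homozygous replicate 1 and WT replicate 1, and they were the same mice that had the most Pdk4.

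**Figure D2:**
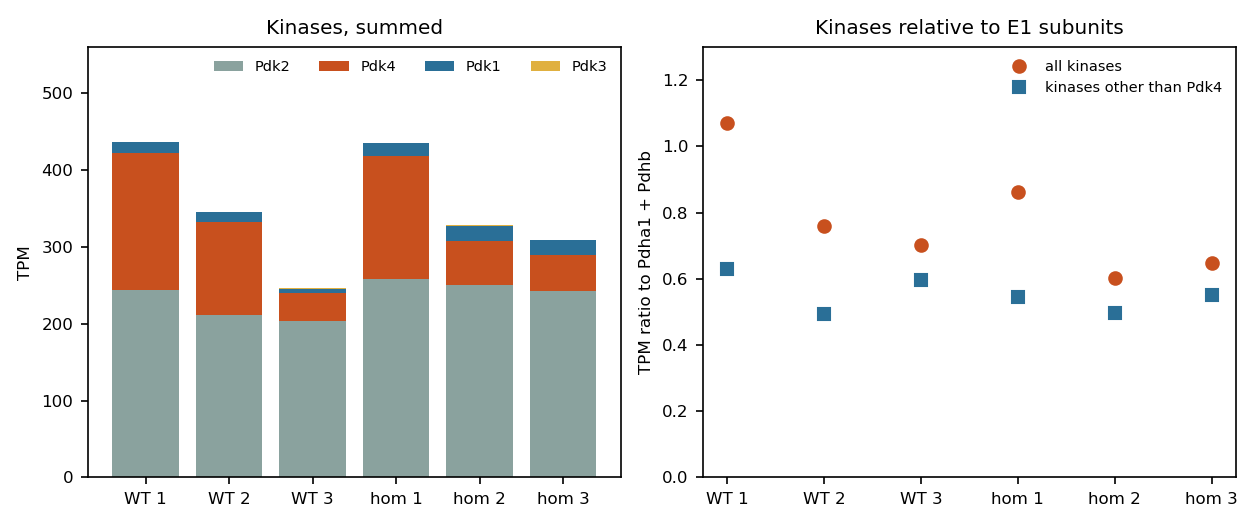
Left, TPM of the 4 kinases stacked for each library; right, the ratio of summed kinase TPM to Pdha1 plus Pdhb TPM, with all kinases (circles) and with Pdk4 left out (squares). The Pdk4 segment varies most, and without it the ratio lies between 0.493 and 0.630 in all 6 libraries.

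The phosphatase transcripts were almost entirely Pdp1, the calcium-activated isoform of muscle, at 96.1% to 98.7% of the summed phosphatases. Pdp1 summed over isoforms was 46.8, 28.01 and 27.5 TPM in homozygous muscle and 28.2, 33.7 and 16.0 TPM in WT muscle. The groups overlapped, and the log2 fold change was 0.40 (SE 0.30; limma, adjusted p 0.395), 0.14 above the median gene, or 0.098 without WT replicate 3 and -0.12 with median centring added. Pdp2 (chromosome 8, 104591451 to 104599026), the other phosphatase, was 0.617, 0.692 and 0.602 TPM in homozygous muscle and 1.15, 0.960 and 0.382 TPM in WT muscle and lay below the filter. Its WT values spread on both sides of the homozygous ones.

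Within Pdp1, isoforms 202 and 201 had log2 fold changes of opposite sign, and neither passed the test. Isoform 202, from the middle first exon (ENSMUST00000095144.9), was 6.36, 6.35 and 6.21 TPM in WT muscle, and 9.85e-05, 7.29e-06 and 2.12 TPM in the homozygous libraries. All homozygous libraries lay below all WT libraries, as for 2.11% of the 21165 tested isoforms. The log2 fold change was -2.32 (SE 0.46), which depends on the pseudocount (-4.51 with 0.1) and did not pass the test over all isoforms (limma, adjusted p 0.226, unadjusted p 0.00173). Without homozygous replicate 3, the only homozygous library with more than a trace, it was -2.87 (limma, adjusted p 0.0795). Leaving out the library nearest to WT widens the difference by construction, and this was the lowest adjusted p of 14 alternatives. Over these the adjusted p reached 0.882 and the log2 fold change ran from -4.51 to -2.05. Without WT replicate 3 it was -2.33 (limma, adjusted p 0.259).

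Isoform 201, from the upstream first exon (ENSMUST00000056050.4), showed the reverse, at 15.5, 9.995 and 8.02 TPM in homozygous muscle and 4.30, 4.69 and 0.000276 TPM in WT muscle. Its groups did not overlap, as for 25.6% of isoforms with the homozygous libraries above, and its log2 fold change was 1.92 (SE 0.68; limma, adjusted p 0.292), or 1.10 without WT replicate 3. Isoform 206, the most abundant in all 6 libraries, was 23.2, 12.9 and 14.8 TPM against 10.6, 17.5 and 6.60 TPM, with overlapping groups. Isoform 203, the one with the most private sequence, was 5.46, 2.89 and 2.61 TPM against 5.06, 4.66 and 2.70 TPM, also overlapping. Isoform 205 stayed at or below 2.22 TPM, and isoform 204 reached 0.862 TPM in 1 library and was at or near 0 in the others.

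Summed by first exon, a grouping chosen after these values were seen, the upstream exon gave 46.6%, 46.0% and 38.6% of Pdp1 transcripts in homozygous muscle and 33.2%, 27.8% and 16.9% in WT muscle. These shares did not overlap, and the means were 43.7% ± 4.45 and 25.9% ± 8.30 (SD, n = 3 each). In TPM the upstream exon gave 21.8, 12.9 and 10.6 against 9.36, 9.35 and 2.70, while the middle exon gave 23.2, 12.9 and 16.9 against 17.0, 23.8 and 12.8, with overlapping groups. The middle exon as a whole therefore did not separate the genotypes, although its isoform 202 did. Within the upstream exon, isoform 203 had a share of 11.7%, 10.3% and 9.48% in homozygous muscle and 17.9%, 13.8% and 16.9% in WT muscle, opposite in order to isoform 201. How reads were split between isoforms that differ by so few bases is not stated in the labels, so these isoform values are uncertain.

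**Figure D3:**
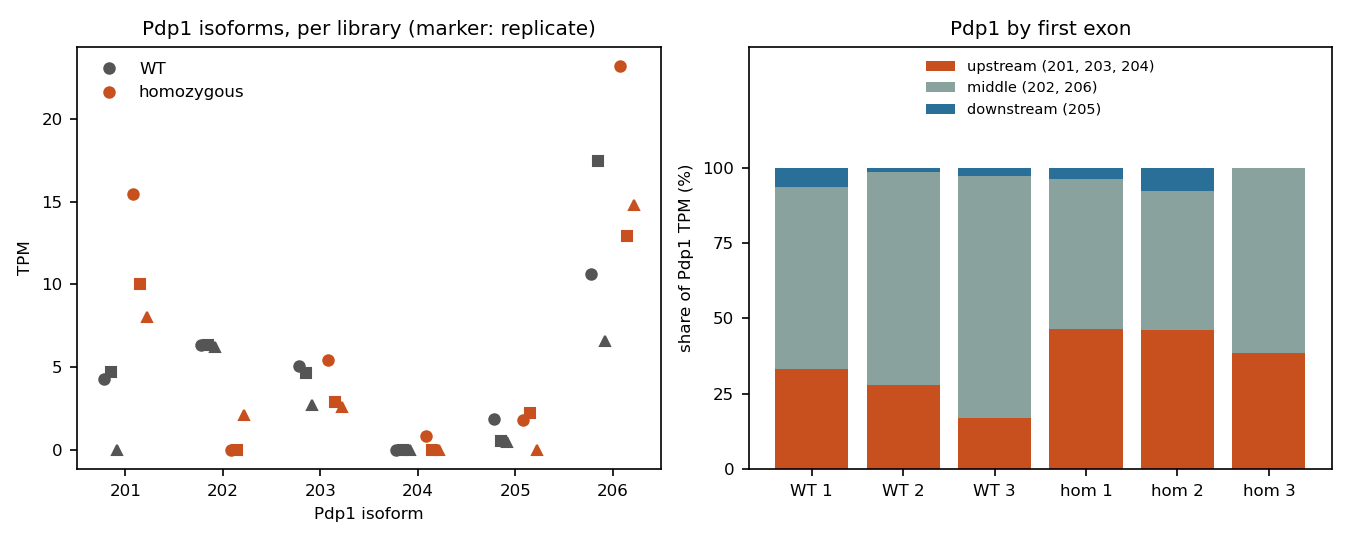
Left, TPM of the 6 Pdp1 isoforms in each library (grey WT, orange homozygous, marker by replicate number); right, the share of Pdp1 TPM by first exon in each library, in percent. Isoform 202 lies at 6.21 to 6.36 TPM in WT and at 2.12 TPM or less in homozygous libraries, and the upstream share is 38.6% to 46.6% in homozygous muscle and 16.9% to 33.2% in WT libraries.

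Summed over all their transcripts, the 4 subunit genes had nearly the same log2 fold change, close to that of the median gene. Pdha1 (chromosome X, 160122209 to 160138413), the E1 alpha subunit that the kinases phosphorylate, was 279, 317 and 276 TPM in homozygous muscle and 235, 269.6 and 192 TPM in WT muscle. Its groups did not overlap, and the log2 fold change was 0.34 (SE 0.16; limma, adjusted p 0.232), or 0.070 above the median gene. Pdhb (chromosome 14, 8165996 to 8173025), the E1 beta subunit, was 226, 226 and 201 TPM against 173, 185 and 159 TPM, again without overlap. Its log2 fold change was 0.34 (SE 0.13; limma, adjusted p 0.186, unadjusted p 0.0319), or 0.072 above the median gene.

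Dlat (chromosome 9, 50634633 to 50659780), the E2 core that carries lipoyl groups, was 78.1, 77.4 and 60.3 TPM in homozygous muscle and 54.1, 63.0 and 53.3 TPM in WT muscle, giving a log2 difference of 0.33 (SE 0.15; limma, adjusted p 0.215). Pdhx (chromosome 2, 103021075 to 103073513), which tethers the E3 enzyme to the core, was 36.8, 33.3 and 37.6 TPM against 27.7, 35.2 and 24.6 TPM, giving a log2 difference of 0.30 (SE 0.16; limma, adjusted p 0.252). Both had overlapping groups when summed over isoforms. The 4 subunit genes thus had log2 fold changes between 0.30 and 0.34, each within 0.072 of the median gene. From protein-coding transcripts only, Dlat was at 0.16, or -0.11 relative to the median gene. The Pdhx sum includes the short fragment Pdhx-203, described below. The longest Pdhx isoform, 201, was 33.1, 30.5 and 29.4 TPM against 27.6, 29.2 and 24.6 TPM. Its homozygous libraries all lay above, as for 25.6% of tested isoforms. Its log2 fold change was 0.19 (SE 0.13, limma adjusted p 0.470), beside a median of 0.25 for all isoforms. For Pdha1 and Pdhx the sign was negative after median centring without WT replicate 3 (-0.017 and -0.028). Pdha1, Pdhb and Pdk1 made 3 of the 8 tested genes whose homozygous libraries all lay above, against 34.7% of all genes, and the same 3 did so without WT replicate 3, against 42.1% of all genes.

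**Figure D4:**
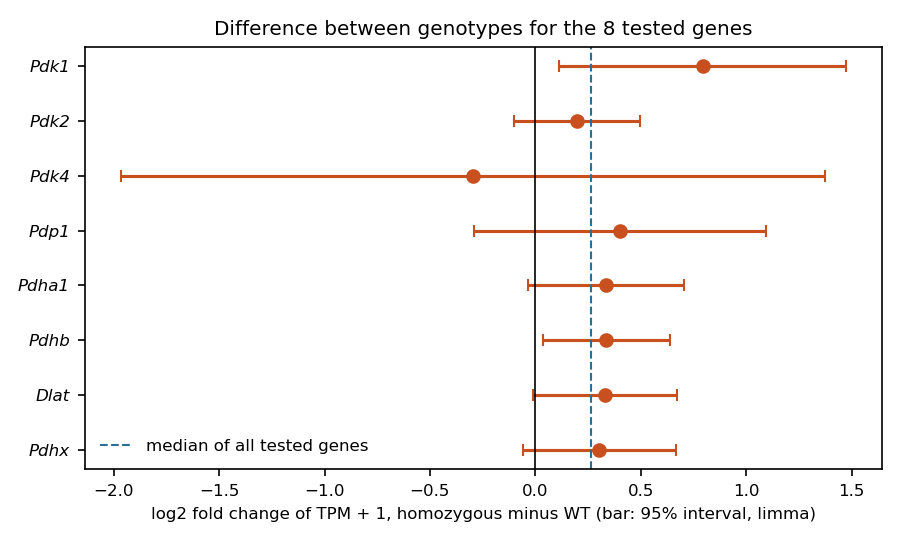
Log2 fold change of TPM + 1, homozygous minus WT, with its 95% interval from limma for the 8 tested genes; the solid line is 0 and the dashed line the median of all 11099 tested genes (0.26). The 4 subunits sit at 0.30 to 0.34 beside the dashed line, Pdk1 lies at 0.79, and the interval of Pdk4 runs from -1.97 to 1.38.

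By level over the 6 libraries the order was Pdha1 (mean 261 TPM), Pdk2 (235), Pdhb (195), Pdk4 (100.4), Dlat (64.4), Pdhx (32.5), Pdp1 (30.03), Pdk1 (14.4), Pdp2 (0.733) and Pdk3 (0.363). Ranges of these sums over the libraries did not overlap between Dlat and Pdhx or between Pdk1 and Pdp2. They overlapped for every other pair of neighbours. The Dlat sum includes its noncoding isoform 202. The coding isoform Dlat-201 alone was 27.8 to 38.6 TPM, which overlaps the Pdhx range of 24.6 to 37.6 TPM. Pdha1 exceeded Pdk2 in 4 of 6 libraries, Pdk4 exceeded Dlat in 3 of 6 and Pdhx exceeded Pdp1 in 4 of 6, so these neighbours are not ordered beyond their spread. Pdk2 exceeded Pdhb in 6 of 6, even though their ranges overlapped.

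Ratios within a library do not depend on its scaling. The ratio of Pdha1 to Pdhb was 1.23, 1.40 and 1.38 in homozygous muscle and 1.36, 1.46 and 1.21 in WT muscle, and the ratio of Dlat to Pdhx was 2.12, 2.33 and 1.603 against 1.96, 1.79 and 2.16. Neither separated the genotypes. The Dlat values in this ratio include the noncoding isoform 202, which held 43.7% to 49.1% of Dlat TPM. Kinase transcripts per E1 transcript were 0.861, 0.603 and 0.649 in homozygous muscle and 1.07, 0.759 and 0.702 in WT muscle, with means of 0.704 ± 0.138 and 0.844 ± 0.198 (SD, n = 3 each). The groups overlapped through homozygous replicate 1, the homozygous mouse with high Pdk4. With Pdk4 left out the ratio was 0.530 ± 0.0293 and 0.573 ± 0.0715. Phosphatase transcripts per kinase transcript were 0.109, 0.0876 and 0.0910 in homozygous muscle and 0.0673, 0.1003 and 0.0665 in WT muscle, again overlapping.

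Of the 40 transcript rows, 18 were protein coding, 16 processed transcripts and 6 retained introns, and 18 rows passed the filter. With limma, 0 of the 18 passed the test over 21165 isoforms, in which 9 (0.0425%) did, 8 (0.0378%) higher and 1 (0.00472%) lower. At an unadjusted p under 0.05 there were 3 higher isoforms (Pdk2-204, Pdp1-201 and Pdhb-201), against 14.2% of all isoforms, and 1 lower (Pdp1-202), against 1.52%. Pdhb and Pdp2 had 1 row each, so their sums are single estimates.

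Dlat had a noncoding transcript listed at nearly the level of its mRNA. Isoform 202, a processed transcript of 770 bases from the middle of the gene, held 47.4%, 49.1% and 44.8% of Dlat TPM in homozygous muscle and 44.7%, 43.7% and 45.2% in WT muscle. The coding isoform 201 held 49.4%, 44.1% and 46.6% against 51.4%, 53.4% and 52.8%, so its share was lower in every homozygous library. In TPM, isoform 201 was 38.6, 34.1 and 28.1 against 27.8, 33.6 and 28.1, with overlapping groups and a log2 difference of 0.16 (SE 0.16; limma, adjusted p 0.613). Of the 31-base windows of isoform 202, 82 of 740 occurred in no other Dlat isoform.

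For Pdk4, the row annotated as a retained intron (isoform 202, 412 bases) was 6.001, 7.67 and 7.72 TPM in homozygous muscle and 11.1, 2.15 and 0.925 TPM in WT muscle. It was not ordered as the mRNA was: homozygous replicates 2 and 3, which were low in Pdk4 mRNA, had 13.3% and 16.5% of their Pdk4 TPM in it, against 1.78% to 6.19% in the other 4 libraries. In Pdk2 the processed transcript 204 was 1.71, 1.49 and 1.503 TPM in homozygous muscle and 0.638, 0.513 and 0.622 TPM in WT muscle, without overlap, and held at most 0.661% of the gene's TPM (log2 fold change 0.69, SE 0.20; limma, adjusted p 0.271). The short coding fragment Pdhx-203, of 655 bases, ranged from 0 TPM in WT replicate 3 to 8.13 TPM in homozygous replicate 3 and held up to 21.6% of Pdhx TPM, with overlapping groups. Few 31-base windows occurred in no other isoform of the gene, 25 of 382 for Pdk4-202, 172 of 711 for Pdk2-204 and 29 of 625 for Pdhx-203. These isoform values are therefore uncertain as well.

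Other genes of pyruvate use were read from lists made with earlier results of these data known. Of 9 complex partners and cofactor genes, 8 were in the table and 7 were tested, 0 passed in either direction, 7 had log2 fold changes above 0 and 3 above that of the median gene, with a median of 0.12. The largest log2 fold change was that of Pdpr, the regulatory subunit of the Pdp1 phosphatase, at 19.9, 22.1 and 20.6 TPM in homozygous muscle and 11.8, 13.7 and 2.48 TPM in WT muscle. Every homozygous library was higher, as for 34.7% of all genes, and the log2 difference was 1.33 (SE 0.51; limma, adjusted p 0.188), or 0.67 without WT replicate 3. Dld, the E3 subunit, named after its values were seen, averaged 103 ± 3.09 TPM against 76.2 ± 17.8 TPM (SD, n = 3 each). Its groups did not overlap, and its log2 fold change was 0.46 (SE 0.18; limma, adjusted p 0.190), or 0.27 without WT replicate 3.

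Of 11 genes of pyruvate supply and its other fates, 0 passed in either direction, 6 had log2 fold changes above 0 and 5 below, 3 were above that of the median gene, and the median was 0.0014. Slc16a1, a lactate and pyruvate transporter of oxidative fibres, was highest at 18.01, 20.8 and 16.9 TPM in homozygous muscle and 10.7, 12.1 and 5.55 TPM in WT muscle (log2 fold change 0.96, SE 0.26; limma, adjusted p 0.168). Slc16a3, the lactate exporter of glycolytic fibres, was lowest at 127, 81.5 and 115.9 TPM against 124, 131 and 286 TPM (log2 fold change -0.65, SE 0.33; limma, adjusted p 0.245). The groups of Slc16a3 overlapped, and its highest library was WT replicate 3, the one with the most fast-fibre transcripts, without which its log2 fold change was -0.26.

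All 8 genes of the related 2-oxoacid dehydrogenase complexes were tested and 0 passed, and 4 were above the median gene, with log2 fold changes from 0.081 for Dbt to 0.53 for Ogdhl and a median of 0.29, beside 0.26 for all genes. Of 10 regulators of Pdk4 transcription and of mitochondrial genes, 0 passed, all 10 had log2 fold changes above 0 (85.8% of all genes), 8 were above the median gene, and 7 had homozygous libraries all above WT (34.7% of all genes), with a median of 0.40. Ppara, a fatty acid receptor that activates Pdk4, was 2.16, 3.95 and 4.69 TPM in homozygous muscle and 1.35, 1.93 and 0.363 TPM in WT muscle (log2 fold change 1.08, SE 0.33; limma, adjusted p 0.168). Esrra had the smallest value, 0.11 (SE 0.15). Foxo1, named after its values were seen, was 4.95, 7.39 and 7.14 TPM against 2.16, 3.03 and 2.95 TPM (log2 fold change 1.01, SE 0.19; limma, adjusted p 0.168). Homozygous replicates 2 and 3 had more Ppara and Foxo1 and less Pdk4 than replicate 1, but WT replicate 3 had the least Ppara and the least Pdk4 of all, so no one order held across the 6 libraries.

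Of 14 PPAR targets of fatty acid use, 11 were tested and 0 passed, 9 had log2 fold changes above 0, 5 were above the median gene, and 0 had groups that did not overlap (35.5% of all genes), with a median of 0.18. Their sum was 2441, 1605 and 1181 TPM in homozygous muscle and 2328, 1207 and 978 TPM in WT muscle, so the highest mouse of each genotype was the one with the most Pdk4. Much of this sum was 1 gene, Fabp3, named after its values were seen. It was 1233, 635 and 453 TPM in homozygous muscle and 1316, 493 and 423 TPM in WT muscle. In this list Lpl was highest (log2 fold change 0.81, SE 0.47, or 0.31 without WT replicate 3) and Ucp3 lowest (-0.43, SE 0.45; limma, adjusted p 0.539). Of 10 glucocorticoid targets, all tested, 0 passed, 7 had log2 fold changes above 0, 5 were above the median gene and 1 had homozygous libraries all above WT (34.7% of all genes), with a median of 0.31. That gene was Zbtb16, at 9.92, 19.1 and 15.2 TPM against 7.43, 7.37 and 7.49 TPM (log2 fold change 0.86, SE 0.22; limma, adjusted p 0.168), and Ddit4 had the lowest value (-0.42, SE 0.51), which was 0.049 without WT replicate 3.

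**Figure D5:**
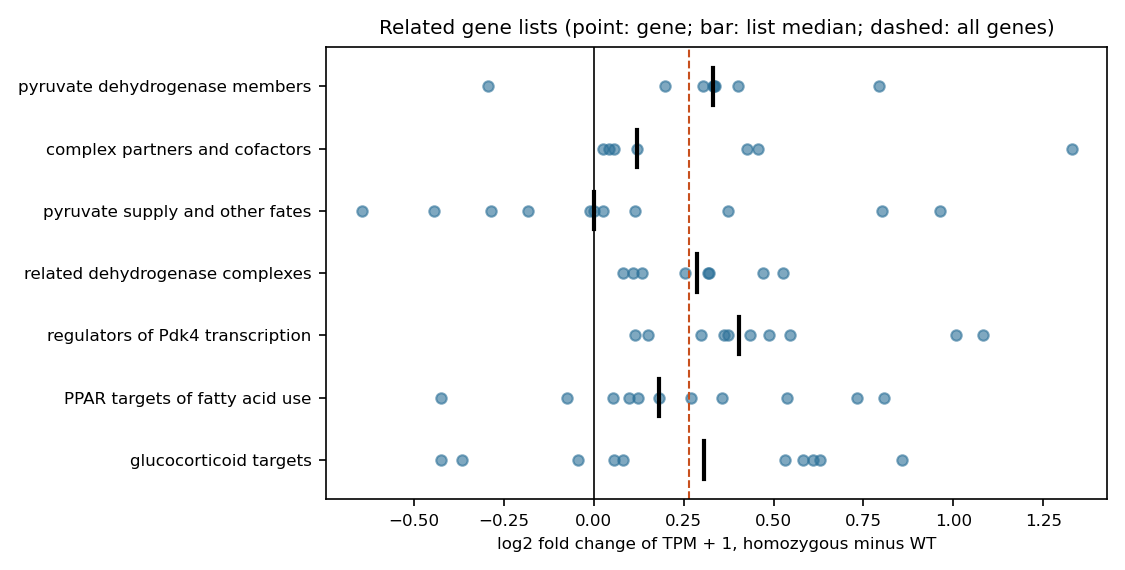
Log2 fold change of TPM + 1, homozygous minus WT, of each tested gene (points) in the pyruvate dehydrogenase set and 6 related lists, with list medians (bars), 0 (solid line) and the median of all genes (dashed line, 0.26). List medians run from 0.0014 for pyruvate supply to 0.40 for the regulators of Pdk4 transcription, and no gene shown passed the test.

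The genes whose profile over the 6 libraries was most like that of Pdk4 were found by the mean absolute difference of log2(TPM + 1), each gene centred on its own mean. The 5 closest of 11098 were Apoo-ps (0.210), a processed pseudogene, Tbc1d4 (0.346), a Rab GTPase-activating protein that gates glucose transporter traffic, H2-Q7 (0.350), H2-Q6 (0.359) and Hist1h1e (0.382), against a median of 0.852 over all genes. Tbc1d4 was 11.2, 7.25 and 8.21 TPM in homozygous muscle and 20.5, 12.3 and 4.94 TPM in WT muscle. H2-Q6 and H2-Q7 are near-identical genes whose reads can be split in ways the table does not show. Of the other tested genes of the set, Pdp1 came nearest to Pdk4, at 0.543 and rank 82, and Pdhb was farthest, at 0.839 and rank 4878. A gene equal in all libraries would lie at 0.840 by this measure. Distances near that value therefore cannot tell an unlike profile from one that hardly varies.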

How the data were processed

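The deposited table holds TPM values (length-corrected transcript levels scaled to the same total) per transcript, which the authors made from poly-A selected, stranded libraries of whole quadriceps RNA. Per the submitters' processing notes, FastQC, Trimmomatic, HISAT2, kallisto and mm10 were used, with no roles or versions. The annotation release is not stated there, and 103635 of the 105129 transcript IDs matched GENCODE M21. TPM keeps no read depth, so depth per sample is unknown and no counting interval is given. TPM was summed per gene symbol, genes that reached 1 TPM in 3 or more libraries were kept, and log2(TPM + 1) was fitted with limma 3.58.1 in R 4.3.3 (trend and robust, genotype only), with Benjamini-Hochberg adjustment over all tested genes, or all tested isoforms, and a threshold of 0.05. Fold changes on this scale understate low genes. The fit was tested on simulated data. The labels number the libraries 1 to 3 in each genotype and do not say that equal numbers share a litter or day, so p-values measure the spread between these libraries.

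The genes and lists were chosen with earlier results of these data known. Genes named outside the set are, per list, the tested ones with the highest and the lowest log2 fold change and the 5 nearest to Pdk4; a few items are not reported here. Alternatives changed the scaling, filter, pseudocount, weights, covariate, block and libraries. Using protein-coding transcripts only, median centring without WT replicate 3, and the values of other named genes without that library, were added after the data were seen.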

Additional observations from a re-analysis of the deposited data

How the results depend on the processing

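The log2 fold changes of the 8 tested genes kept their sign in 120 of 128 values over 16 alternatives, and those of the 18 tested isoforms in 236 of 252 over 14, with 0 of these values passing the test. Signs turned for Pdk2 (-0.018 quantile, -0.10 median centring), for Pdk4 (0.17 without WT replicate 1, 0.045 without homozygous replicate 3) and, with median centring and without WT replicate 3, for Pdk2 (-0.078), Pdp1 (-0.12), Pdha1 (-0.017) and Pdhx (-0.028). Among isoforms they turned with quantile normalization for Dlat-201 (-0.043), Pdhx-201 (-0.019), Pdk2-201 (-0.010) and Pdp1-205 (-0.12), and with median centring for the same 4 (-0.11, -0.080, -0.080 and -0.098). Pdp1-205 also turned with a pseudocount of 0.1 (-0.21), array weights (-0.089), the slow-fibre covariate (-0.43) and without homozygous replicate 1 (-0.045) or 2 (-0.14). The rest were Dlat-203 (-0.0060 without WT replicate 2), Pdk4-201 (0.033 without WT replicate 1) and Pdk4-202 (-0.065 slow-fibre covariate). Genes passing the test numbered 0, against 810 with array weights, 2 without WT replicate 1, 1 without WT replicate 2 and 0 without any other library. Isoforms passing numbered 9, against 3 with quantile normalization, 5 with median centring, 5 without mitochondrial transcripts, 0 without a filter, 4 with a pseudocount of 0.1, 14 with array weights and 0 with the slow-fibre covariate. That count was 36 without WT replicate 1, 10 without WT replicate 2, 1 without homozygous replicate 3 and 0 without any other library. With the replicate number as a block 0 genes and 0 isoforms passed. The deviations of equally numbered libraries from the group means correlated at -0.07, 0.06 and -0.01, against -0.14 to 0.13 for unequal numbers. With 3 libraries per group, each centred on its group mean, these values cannot show whether equal numbers share a litter or day. Leaving out 1 library kept the genotype differences of the Pdk4 share of kinases (-14.9 to -1.87 percentage points), kinases per E1 (-0.218 to -0.0263), phosphatases per kinase (0.0113 to 0.0290) and the upstream Pdp1 share (13.3 to 21.4 percentage points) in sign. Over the single-library omissions the log2 fold change of Pdk4 ran from -0.95 to 0.17 (and was -1.18 with array weights), of Pdk4-201 from -1.05 to 0.033, of Dlat-203 from -0.0060 to 0.66 and of Pdp1-205 from -0.14 to 0.70. The cause of these changes was not tested. Depth is unknown, which limits what can be said of Pdk3, Pdp2 and the isoforms near 0.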
